A study of Mus musculus with 36 samples.

Results

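The genes of the mitosis machinery described here are 46 genes chosen by name: kinases that drive mitosis, spindle checkpoint genes, kinetochore subunits, kinesin motors, the scaffold of the chromosomal passenger complex, condensin and other chromosome structure genes, and genes of cohesion, spindle assembly and cytokinesis. The list was given by gene name, without a cut on measured values, but it was proposed with results known. No test of the list as a whole was therefore made. All 46 had at least 1 probe on the array (62 probes in all), and 37 of the 46 passed the filters on background and variation, among 15076 genes that passed them in the series. Gene expression had been measured in the blood of 36 male C57BL/6J mice, 1 Agilent single-colour array per mouse, 7 days after exposure. The 6 groups of 6 mice were sham-irradiated controls, 3 Gy x-rays, 3 Gy mixed field neutron/x-ray exposures with 5, 15 and 25% of the dose from neutrons (0.15, 0.45 and 0.75 Gy), and 0.75 Gy of neutrons without x-rays, called neutron alone here. The labels give this last group as 100% neutron, while the methods state that the neutron source also delivers some photons. The labels name no engineered allele, and all RNA came from whole blood after removal of excess globin RNA.

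During mitosis, cyclin-dependent kinase, Polo and Aurora kinases trigger entry and spindle assembly, condensin compacts the chromosomes, and microtubules attach to the kinetochores built on the centromeres. The spindle checkpoint delays separase, the protease that opens cohesin, until every kinetochore is attached, and the passenger complex corrects faulty attachments and later guides cytokinesis with the central spindle. Many of these genes are transcribed only late in the cell cycle, and their transcripts are therefore a common readout of dividing cells. Circulating blood holds mostly cells that have left the cycle, along with rare cycling lymphocytes and precursors. In bulk blood, more cells of a dividing type and more RNA per cell cannot be told apart.

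Values are log2 intensities minus the median of the array, so 0 is the middle probe of an array and a difference of 1 is 2-fold. Changes are log2 differences between group means ± SE, with 6 mice in each group. Arrays had between 15564 and 21293 probes well above background and median intensities between 6.8 and 39.4, which lies close to background. Probes that were never significantly above background on any array (2354 probes) had a median change against controls of 0.58 with x-rays, 0.45, 0.62 and 0.21 in the 5, 15 and 25% fields, and 0.95 with neutron alone. For dim members a positive value of that size was thus also seen in probes without signal, and its part in their values was not tested. The arrays came from 10 slides scanned in 4 sessions. Of the controls and x-ray arrays, 5 each were scanned in session 1, the 25% and neutron alone arrays were all scanned in session 3, and 5 each of the 5 and 15% arrays in session 2, with 1 array each of controls, x-rays, 5 and 15% in session 4. The effect of exposure to 25% or to neutron alone against controls therefore cannot be told apart from scan session, and for the 5 and 15% fields only 1 array of each group shared a session with a control. The labels describe 6 independent experiments per group, and the tests measure the spread between mice.

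Many mitosis genes rose in blood after 3 Gy, among them Cdca3, Mki67, Spc24 and Birc5, and fewer passed the test after neutron alone. Genes were called at p below 0.001 with an adjusted p below 0.05. With x-rays 17 of the 37 members tested rose and 0 fell, against 12.9% of all genes called higher and 16.9% called lower. The 5% mixed field raised 20 members (9.01% of all genes higher, 14% lower), the 15% field 22 (12.6% higher, 16.6% lower) and the 25% field 24 (10.9% higher, 13.9% lower), and 0 members fell in any of them. With scan session as a block, which rests on that shared session, 1 member rose in the 5% field and 4 in the 15% field, with medians of 1.35 and 1.69. The shares of all genes called higher were then 0.0862 and 0.398%. With slide as a block 0 and 3 members rose (0.0133 and 0.139% of all genes), and 10 with x-rays (5.46%). With neutron alone 10 members rose and 0 fell, against 16.1% of all genes called higher and 20.4% called lower. The median log2 change of the 37 members was 1.27 with x-rays, 1.36, 1.55 and 1.5 in the 5, 15 and 25% fields, and 0.68 with neutron alone, where the median of all genes lay between -0.12 and -0.02. Neutron alone gave the smallest of the 5 changes for 24 of the 37 members, and the 15% field the largest for 15.

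Over different roles, 7 members rose in every exposure: Cdca3, Mki67, Spc24, Birc5, Top2a, Nusap1 and Incenp. In 13 members the 4 exposures at 3 Gy were all called, 26 members rose in at least 1 exposure, and 0 rose only with neutron alone. No share of all genes is given for these counts over several exposures. The other 11 members tested were called in none, namely Anln, Ncapd2, Aurka, Kif20a, Bub1b, Ect2, Kif23, Racgap1, Mad2l1, Ndc80 and Smc4. Scaling on the 75th percentile of each array moved the median of all genes to 0.44 with x-rays and to 0.29 with neutron alone. Under it 26 of 36 members were called higher with x-rays (19.5% of all genes) and 16 of 36 with neutron alone (24.8%), and 0 fell. Normexp background correction with an offset of 50 left 22 members to test and moved the median of all genes to between -1.21 and -0.18. Under it 2 rose with x-rays, 0, 6 and 3 in the 5, 15 and 25% fields and 0 with neutron alone. The shares of all genes called higher were 0.254, 0, 5.2, 0.499 and 0.0188% in that order. The members' median turned to -0.06 in the 5% field and to -0.25 with neutron alone.

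**Figure D1:**
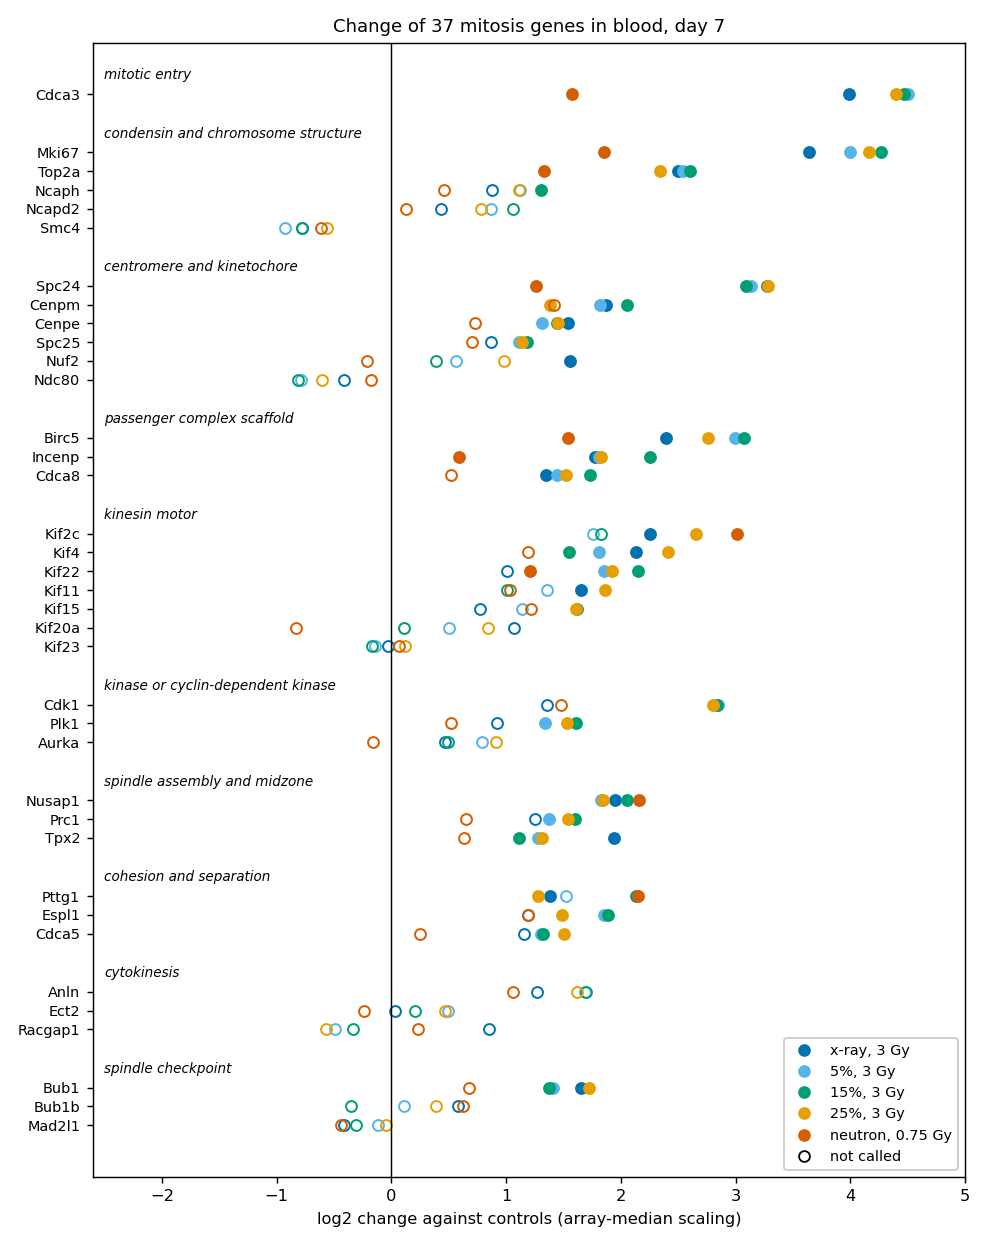
Log2 change against controls (horizontal axis) of the 37 mitosis genes tested, grouped by role, for the 5 exposures (colours). Filled points passed the test and open points did not; every filled point lies to the right of 0, and the neutron alone points mostly lie to the left of the others in their row.

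Many of the mitosis genes held a short motif around the transcription start. The cell cycle genes homology region, or CHR, is a 6-base element bound by the DREAM and MYB-MuvB complexes, which hold late cell cycle genes silent in resting cells and activate them in dividing ones, and CCAAT boxes bound by NF-Y often accompany it. RefSeq promoter windows (build GRCm38.p6, 250 bases before to 50 after the transcription start) were found for 40 of the 46 members and 27025 genes in all. TTTGAA, searched on both strands (TTCAAA on the other), was in the windows of 30 of the 40 members (75%) and of 20.2% of all genes. CCAAT, searched on both strands (ATTGG), was in 72.5% of the members' windows and 41.1% of all, and both motifs were in 62.5% and 8.97%. With TTTAAA counted as well the shares were 80% and 30.6%, and in the bases before the start alone TTTGAA was in 37.5% of the members and 18.3% of all genes. The letters overlapped a CCAAT box in 1 member. TTTGAA was in the windows of 15 of the 23 members called in at least 1 exposure and of 8 of the 9 called in none, and Birc5 and Nusap1 were without it in theirs.

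The sequences below are those of the member with the motif and the largest mean change in each role other than the passenger complex, shown as examples of the motif across the roles. They run 5′ to 3′ on the strand of the gene, with TTTGAA or TTCAAA and CCAAT or ATTGG in capitals. For 5 members the motif lay before the start, and the last 150 bases before it are printed: Mki67 (chr7:135716380-135716529, minus strand), Cdk1 (chr10:69352913-69353062, minus strand), Kif2c (chr4:117178773-117178922, minus strand), Espl1 (chr15:102296143-102296292, plus strand) and Prc1 (chr7:80294326-80294475, plus strand), for which the later of 2 annotated starts was used.
Mki67: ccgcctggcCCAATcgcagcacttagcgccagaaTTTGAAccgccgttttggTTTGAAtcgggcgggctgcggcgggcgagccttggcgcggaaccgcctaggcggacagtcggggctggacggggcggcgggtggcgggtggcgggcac
Cdk1: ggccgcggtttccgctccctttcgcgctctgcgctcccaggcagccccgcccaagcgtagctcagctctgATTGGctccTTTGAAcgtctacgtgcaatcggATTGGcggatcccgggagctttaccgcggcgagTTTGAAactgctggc
Kif2c: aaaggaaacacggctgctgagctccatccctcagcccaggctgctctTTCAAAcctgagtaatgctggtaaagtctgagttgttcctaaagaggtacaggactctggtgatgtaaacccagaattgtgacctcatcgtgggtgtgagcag
Espl1: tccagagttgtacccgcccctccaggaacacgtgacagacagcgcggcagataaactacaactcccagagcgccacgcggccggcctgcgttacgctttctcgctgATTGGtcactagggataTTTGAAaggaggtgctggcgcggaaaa
Prc1: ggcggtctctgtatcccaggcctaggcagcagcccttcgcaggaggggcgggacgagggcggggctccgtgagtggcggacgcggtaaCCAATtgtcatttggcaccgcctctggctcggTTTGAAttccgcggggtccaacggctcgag
For 4 members the motif lay just after the start, and 30 bases of the transcript around it are printed, with the CHR motif alone in capitals: Cdca3 (chr6:124830194-124830223, plus strand), Spc25 (chr2:69206172-69206201, minus strand), Anln (chr9:22389168-22389197, minus strand) and Bub1b (chr2:118598231-118598260, plus strand).
Cdca3: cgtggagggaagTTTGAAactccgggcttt
Spc25: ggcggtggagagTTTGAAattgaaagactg
Anln: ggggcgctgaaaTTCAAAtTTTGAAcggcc
Bub1b: ctgcgtcaagagacgttaaaTTTGAAactt
Mki67 and Cdk1 each held the motif at 2 places before the start and Anln at 2 places after it, where the copies are 1 base apart.

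**Figure D2:**
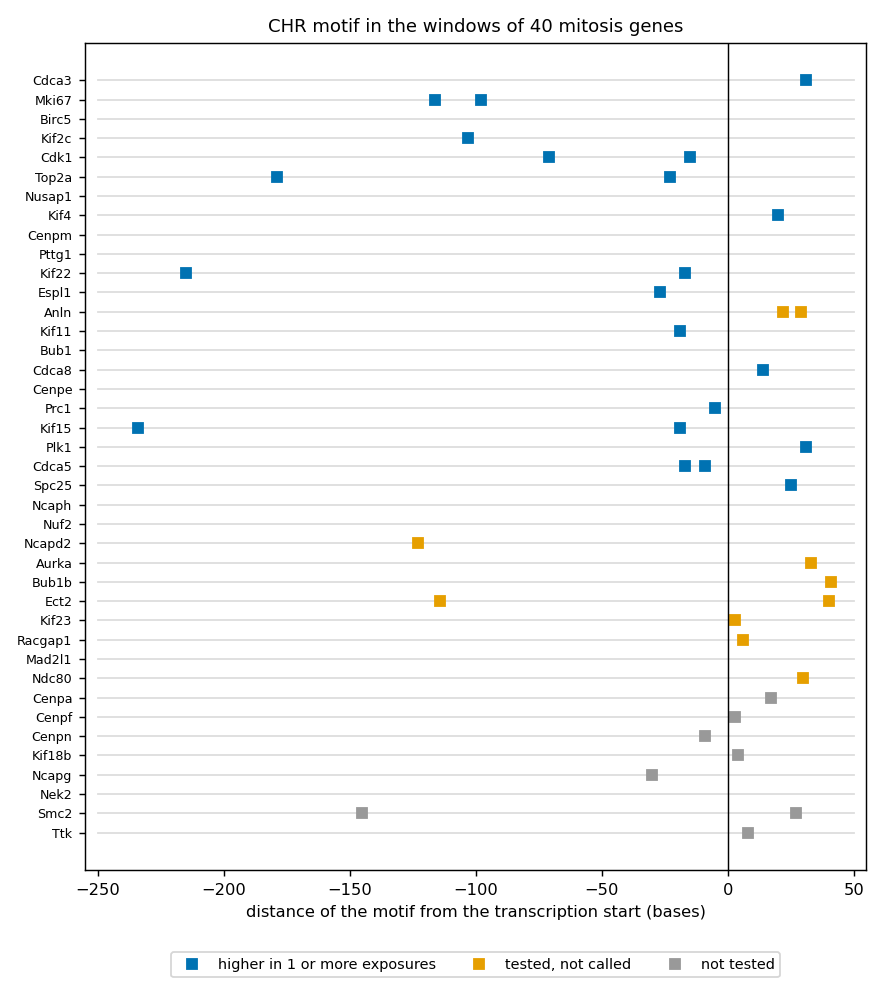
Position of the CHR motif (squares) relative to the transcription start, in bases, in the windows of 40 mitosis genes (the first listed start of each), from the largest mean change (top) to the smallest and then the genes not tested. Blue squares mark genes higher in at least 1 exposure, orange squares genes tested and called in none, and grey squares genes not tested; squares gather within 50 bases of the start in all 3 colours.

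Cdca3, a trigger of mitotic entry that directs the removal of the inhibitory kinase Wee1, had the largest mean change of all members. Cdca3 ranged from 1.61 to 2.37 (median 2.12) in controls, 4.36 to 6.76 (median 6.30) with x-rays and 3.14 to 4.33 (median 3.57) with neutron alone. Cdca3 values in the mixed fields were 5.67 to 7.29 (median 6.71) at 5%, 5.64 to 7.33 (median 6.67) at 15% and 5.95 to 7.77 (median 6.23) at 25%. No exposed mouse overlapped the controls, and the neutron alone mice lay between the controls and every 3 Gy group. The log2 change was 3.99 ± 0.35 with x-rays, 4.5 ± 0.32, 4.47 ± 0.29 and 4.40 ± 0.30 in the 5, 15 and 25% fields and 1.57 ± 0.21 with neutron alone (adjusted p between 2.02e-07 and 3.87e-05).

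Of the 5 chromosome structure genes tested, Mki67 and Top2a rose in every exposure. Mki67, which coats mitotic chromosomes and keeps them apart, is the classical proliferation marker. Mki67 ranged from 4.21 to 5.01 (median 4.75) in controls, 7.05 to 8.98 (median 8.57) with x-rays and 6.25 to 6.85 (median 6.51) with neutron alone. Mki67 values in the mixed fields were 7.34 to 9.44 (median 9.05) at 5%, 8.12 to 9.65 (median 9.11) at 15% and 8.08 to 9.79 (median 8.85) at 25%. Its 6 groups formed 3 levels that did not overlap, with controls lowest, neutron alone next and the 4 exposures at 3 Gy above. The change was 3.64 ± 0.30 with x-rays, 4.00 ± 0.35, 4.27 ± 0.29 and 4.16 ± 0.27 in the 5, 15 and 25% fields and 1.85 ± 0.16 with neutron alone, and its second probe gave 3.57, 4.18, 4.42, 4.22 and 1.99 in that order. Top2a, the topoisomerase that untangles sister DNA, also had its lowest group median in controls and the next in neutron alone. Top2a ranged from 0.53 to 1.25 (median 1.01) in controls, 2.44 to 3.91 (median 3.60) with x-rays and 2.00 to 2.86 (median 2.17) with neutron alone. Top2a values in the mixed fields were 2.83 to 4.07 (median 3.64) at 5%, 2.98 to 4.01 (median 3.59) at 15% and 2.96 to 4.16 (median 3.14) at 25%. Its changes were 2.50 ± 0.25 with x-rays, 2.54 ± 0.26, 2.60 ± 0.23 and 2.34 ± 0.23 in the 5, 15 and 25% fields and 1.33 ± 0.18 with neutron alone (adjusted p between 2.2e-06 and 4.4e-05), and no exposed mouse overlapped the controls.

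Condensin subunits differed in direction. Smc4, the ATPase shared by both condensins, was lower in all exposures without passing the test. Smc4 ranged from 5.81 to 6.69 (median 6.32) in controls, 4.76 to 6.07 (median 5.61) with x-rays and 5.23 to 6.02 (median 5.72) with neutron alone. Smc4 values in the mixed fields were 4.24 to 6.14 (median 5.57) at 5%, 4.82 to 6.02 (median 5.60) at 15% and 5.58 to 5.91 (median 5.73) at 25%. Its changes were -0.78 ± 0.25 with x-rays, -0.93 ± 0.34, -0.78 ± 0.27 and -0.56 ± 0.21 in the 5, 15 and 25% fields and -0.61 ± 0.21 with neutron alone, with adjusted p between 0.0178 and 0.0417, so these values passed the adjusted threshold but not p below 0.001. Under 75th percentile scaling Smc4 did not pass the filters, and in the values of the deposited table it was called lower in the 5 and 15% fields (-1.2 and -1.12) and with neutron alone (-0.79). Ncaph, a condensin I subunit, had positive changes of 0.46 to 1.3 and passed the test in the 15% field alone. Ncapd2, another, had positive changes of 0.13 to 1.06 and passed in no exposure. The second ATPase Smc2 was measured on all 36 arrays but varied too little for the filter, with differences of 0.66 to 0.93 from controls.

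Among kinetochore genes, Spc24, part of the NDC80 complex that grips microtubules, had the largest change. Spc24 ranged from 1.13 to 1.74 (median 1.47) in controls, 4.06 to 5.22 (median 4.83) with x-rays and 2.29 to 3.18 (median 2.79) with neutron alone. Spc24 values in the mixed fields were 4.02 to 5.15 (median 4.53) at 5%, 3.82 to 5.03 (median 4.62) at 15% and 4.17 to 5.89 (median 4.5) at 25%. Again the 4 exposures at 3 Gy lay apart from neutron alone, which lay apart from controls. The changes were 3.27 ± 0.22 with x-rays, 3.13 ± 0.24, 3.09 ± 0.23 and 3.28 ± 0.27 in the 5, 15 and 25% fields and 1.26 ± 0.17 with neutron alone (adjusted p between 4.96e-07 and 3.18e-05). Its partner subunits did not move alike. Spc25 rose in the 5, 15 and 25% fields, with a mean change of 1.00 over the 5 exposures. Nuf2 ranged from -1.95 to -0.74 (median -1.04) in controls, -0.60 to 1.41 (median 0.21) with x-rays and -1.83 to 0.00 (median -1.77) with neutron alone. Nuf2 values in the mixed fields were -2.38 to 0.54 (median -0.16) at 5%, -1.88 to 0.39 (median -1.07) at 15% and -0.91 to 0.53 (median -0.52) at 25%. Nuf2 was well above background on 0 control arrays and 3 of the 6 x-ray arrays, and was called higher in the x-ray group and in no other, at least 1.72-fold (adjusted p = 0.00315). Ndc80, the subunit that names the complex, was lower in all exposures and called in none. Ndc80 ranged from 0.73 to 1.54 (median 1.07) in controls, 0.26 to 1.51 (median 0.64) with x-rays and 0.36 to 1.55 (median 0.90) with neutron alone. Ndc80 values in the mixed fields were -0.55 to 1.04 (median 0.35) at 5%, -0.10 to 0.74 (median 0.28) at 15% and -0.07 to 0.88 (median 0.52) at 25%. Its changes were -0.41 ± 0.24 with x-rays, -0.79 ± 0.29, -0.81 ± 0.23 and -0.60 ± 0.22 in the 5, 15 and 25% fields and -0.18 ± 0.22 with neutron alone, with adjusted p between 0.00873 and 0.5, and with scaling on the 75th percentile the value for neutron alone turned to 0.09. Cenpm, of the inner kinetochore, and Cenpe, a kinetochore motor, rose in all 4 exposures at 3 Gy. Cenpm was well above background on 0 control arrays, and its rise was at least 2.19-fold in the 15% field.

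**Figure D3:**
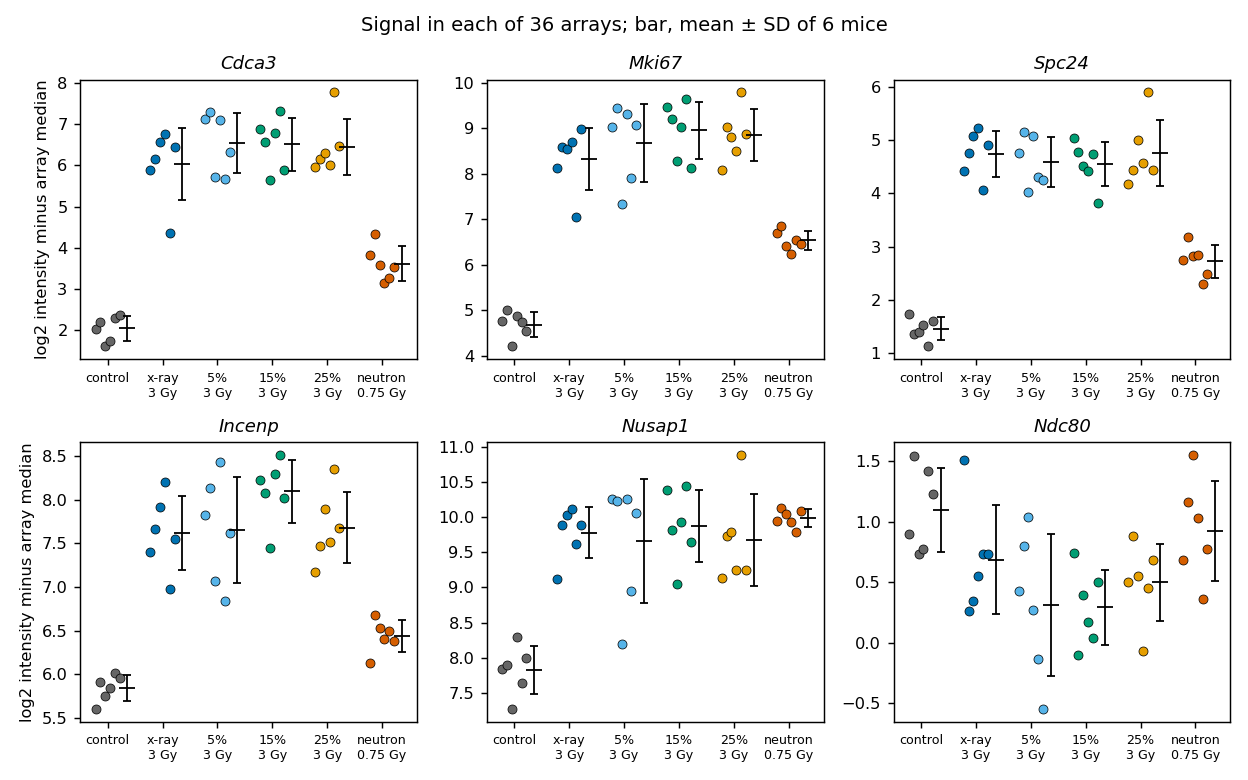
Log2 intensity minus the array median (vertical axis) of 6 mitosis genes in each of 36 mice, by group (horizontal axis), with points for mice and a bar for the mean ± SD of 6. Cdca3, Mki67, Spc24 and Incenp after neutron alone lie between controls and the 3 Gy groups, Nusap1 after neutron alone lies among the 3 Gy groups, and the exposed groups of Ndc80 overlap the controls.

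The 3 scaffold subunits of the chromosomal passenger complex, which position Aurora B, rose in every 3 Gy exposure. Birc5, or survivin, had the largest change of them. Birc5 ranged from 3.69 to 4.54 (median 4.33) in controls, 5.52 to 7.14 (median 6.87) with x-rays and 5.30 to 6.63 (median 5.72) with neutron alone. Birc5 values in the mixed fields were 6.35 to 7.88 (median 7.38) at 5%, 6.18 to 7.95 (median 7.47) at 15% and 6.61 to 7.86 (median 6.90) at 25%. Its changes were 2.39 ± 0.28 with x-rays, 2.99 ± 0.29, 3.07 ± 0.32 and 2.76 ± 0.24 in the 5, 15 and 25% fields and 1.54 ± 0.22 with neutron alone (adjusted p between 1.86e-06 and 6.06e-05), and no exposed mouse overlapped the controls. With neutron alone, 2 other Birc5 probes gave 1.5 and 0.82. Incenp, the scaffold that activates Aurora B, showed the smallest change of the 10 called with neutron alone. Incenp ranged from 5.60 to 6.01 (median 5.88) in controls, 6.97 to 8.20 (median 7.61) with x-rays and 6.13 to 6.68 (median 6.45) with neutron alone. Incenp values in the mixed fields were 6.84 to 8.43 (median 7.72) at 5%, 7.45 to 8.51 (median 8.15) at 15% and 7.17 to 8.35 (median 7.59) at 25%. That change with neutron alone was 0.59 ± 0.13 (adjusted p = 0.00159), against 1.77 ± 0.21 with x-rays and 2.25 ± 0.21 in the 15% field, and a second probe of Incenp gave 1.5 with neutron alone. Cdca8, or borealin, had the smallest mean change in the complex. Group medians of Cdca8 were 3.03 in controls (2.82 to 3.46), 4.42 with x-rays, 4.63, 4.87 and 4.49 in the 5, 15 and 25% fields, and 3.52 with neutron alone (2.93 to 4.59). It rose at 3 Gy in all 4 exposures, and with neutron alone its change was 0.52 ± 0.23 (adjusted p = 0.0698), while a second probe gave 1.14. Aurkb, the kinase of the complex, was not significantly above background on any array and gave no level.

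Of the kinases, Cdk1, the kinase that drives cells into mitosis, rose in the 3 mixed fields. Cdk1 ranged from -2.55 to -1.09 (median -1.49) in controls, -1.69 to 1.19 (median -0.40) with x-rays and -1.74 to 1.55 (median -0.30) with neutron alone. Cdk1 values in the mixed fields were -0.19 to 2.45 (median 1.13) at 5%, -0.04 to 2.12 (median 1.21) at 15% and 0.18 to 1.83 (median 1.23) at 25%. It was well above background on 0 of 6 control arrays, 2 of 6 x-ray arrays and 2 of 6 neutron alone arrays. The rise was at least 3.15-fold, 3.12-fold and 3.05-fold in the 5, 15 and 25% fields (adjusted p 0.000109, 5.12e-05 and 1.27e-05), and for x-rays, where the test was not passed, the bound was 1.12-fold (adjusted p = 0.0163). These values rest on 1 of 3 Cdk1 probes. The others were significantly above background on 22 and 2 arrays, too few for the filter. They gave -0.03, 0.14 and -0.49, and 0.46, 0.69 and 0.21, in the 5, 15 and 25% fields. Plk1, a Polo kinase, also rose in the 3 mixed fields. Aurka, the Aurora kinase of the spindle poles, was called in none. Group medians of Aurka were 1.37 in controls (1.01 to 1.88), 1.86 with x-rays, 2.07, 1.92 and 2.2 in the 5, 15 and 25% fields, and 1.18 with neutron alone (0.05 to 2.70). Its changes ran from -0.16 with neutron alone to 0.91 in the 25% field, where the 6 mice did not overlap the controls (adjusted p = 0.00579). Nek2, a kinase that parts the centrosomes, was significantly above background on 27 arrays, too few for the filter.

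Of the 3 checkpoint genes tested, 1 rose. Bub1, the kinase that recruits the checkpoint to kinetochores, rose in all 4 exposures at 3 Gy. Bub1 ranged from -1.86 to -0.51 (median -1.68) in controls, -0.56 to 1.11 (median 0.15) with x-rays and -1.06 to 0.15 (median -1.01) with neutron alone. Bub1 values in the mixed fields were -0.79 to 0.61 (median 0.01) at 5%, -0.24 to 0.46 (median -0.15) at 15% and -0.15 to 0.83 (median 0.32) at 25%. As it was well above background on 0 control arrays, these are bounds: at least 1.61-fold with x-rays and at least 1.36, 1.32 and 1.68-fold in the 5, 15 and 25% fields (adjusted p 0.00063, 0.00174, 0.000705 and 0.000191). Bub1 was itself well above background on only 1 of 6 arrays with x-rays, 1 each in the 5 and 15% fields and 4 in the 25% field. Bub1b, or BubR1, and Mad2l1, the subunits of the inhibitor of the anaphase-promoting complex, were called in none. Group medians of Bub1b were 0.47 in controls (-1.46 to 0.61), 0.56 with x-rays, 0.09, -0.55 and 0.45 in the 5, 15 and 25% fields, and 1.04 with neutron alone (-0.60 to 1.56). Group medians of Mad2l1 were 2.74 in controls (2.32 to 3.30), 2.33 with x-rays, 2.74, 2.38 and 2.69 in the 5, 15 and 25% fields, and 2.30 with neutron alone (1.62 to 3.14). The changes of Mad2l1 were between -0.44 and -0.05, but its other 2 probes gave positive changes of 0.09 to 0.99. Under 75th percentile scaling its values were positive in all 5 exposures, with another of these probes standing for the gene. Ttk, or Mps1, was not significantly above background on any array.

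Kinesin motors ranged from large rises to none. Kif2c, which depolymerises microtubules at centromeres to correct attachments, had the largest mean change of its role. Kif2c ranged from -2.22 to -0.40 (median -1.5) in controls, -0.73 to 1.76 (median 1.00) with x-rays and 0.70 to 3.82 (median 0.98) with neutron alone. Kif2c values in the mixed fields were -1.91 to 2.00 (median 0.30) at 5%, -1.4 to 1.68 (median 0.33) at 15% and 0.28 to 2.19 (median 1.25) at 25%. It was well above background on 0 control arrays, 3 neutron alone arrays and 6 arrays of the 25% field. Its rise was at least 4.07-fold with neutron alone (adjusted p = 0.000371), at least 3.15-fold in the 25% field (adjusted p = 0.00011) and at least 2.4-fold with x-rays (adjusted p = 0.00113). A second Kif2c probe close by, well above background on 2 control arrays and on 0 arrays of the exposed groups, showed differences of -0.19 to 0.07, so the 2 probes disagree. Kif4, the chromosome-bound motor that shortens the central spindle, rose in all 4 exposures at 3 Gy. Kif4 ranged from -2.82 to -0.84 (median -2.16) in controls, -0.65 to 0.76 (median 0.20) with x-rays and -1.34 to 0.04 (median -0.82) with neutron alone. Kif4 values in the mixed fields were -0.83 to 0.27 (median -0.19) at 5%, -1.15 to 0.00 (median -0.27) at 15% and -0.16 to 1.09 (median 0.39) at 25%. It was well above background on 0 control and 0 neutron alone arrays, on 3 with x-rays and on 2, 1 and 4 in the 5, 15 and 25% fields. The rise was at least 1.86-fold in the 25% field (adjusted p = 8.59e-05). Kif22, a chromokinesin, rose in the mixed fields and with neutron alone. Kif11, the motor that pushes spindle poles apart, was called higher with x-rays and in the 25% field. Kif15, which can stand in for it, was called higher in the 25% field. Both Kif11 and Kif15 were well above background on 0 control arrays. Kif11 was so on 3 x-ray arrays and 4 arrays of the 25% field, and Kif15 on 2 of the 25% field.

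Kif20a and Kif23, motors of the central spindle, did not pass the test in any exposure. Group medians of Kif20a were 1.31 in controls (0.91 to 1.87), 2.42 with x-rays, 1.71, 1.44 and 2.13 in the 5, 15 and 25% fields, and 0.78 with neutron alone (-1.28 to 2.43). The changes of Kif20a went from 1.07 with x-rays to -0.83 with neutron alone, and 1 neutron alone mouse was at -1.28. Group medians of Kif23 were 1.32 in controls (0.73 to 1.89), 1.23 with x-rays, 1.36, 1.11 and 1.5 in the 5, 15 and 25% fields, and 1.44 with neutron alone (0.44 to 1.95). For Kif23 no change exceeded 0.17 in size. Kif18b was significantly above background on 13 arrays and was not tested.

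Each of the 3 spindle assembly genes rose in the mixed fields. Nusap1, which bundles microtubules near chromosomes, rose in all 5 exposures. Nusap1 ranged from 7.27 to 8.29 (median 7.87) in controls, 9.12 to 10.12 (median 9.88) with x-rays and 9.78 to 10.13 (median 10) with neutron alone. Nusap1 values in the mixed fields were 8.19 to 10.26 (median 10.14) at 5%, 9.05 to 10.44 (median 9.88) at 15% and 9.13 to 10.88 (median 9.49) at 25%. Only in the 5% field did exposed mice overlap the controls. The change with neutron alone of 2.16 ± 0.16 (adjusted p = 3.56e-07) stands beside 1.95 ± 0.22 for x-rays, and the 95% interval of the difference between them was -0.21 to 0.64. Tpx2, which activates Aurora A on the spindle, was called in the 4 exposures at 3 Gy. Tpx2 ranged from 1.24 to 1.74 (median 1.57) in controls, 2.99 to 3.84 (median 3.54) with x-rays and 1.87 to 2.85 (median 2.09) with neutron alone. Tpx2 values in the mixed fields were 2.28 to 3.28 (median 2.88) at 5%, 2.02 to 3.28 (median 2.78) at 15% and 2.10 to 3.87 (median 2.71) at 25%. Its changes were 1.94 ± 0.18 with x-rays, 1.28 ± 0.21, 1.11 ± 0.24 and 1.31 ± 0.29 in the 5, 15 and 25% fields and 0.63 ± 0.17 with neutron alone. The second Tpx2 probe gave 1.42, 2.38, 2.94, 1.95 and 2.99, in the same order of exposures, so for Tpx2 the place of neutron alone depends on the probe. Prc1, which crosslinks the central spindle, rose in the 3 mixed fields.

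Genes of sister separation were led by Pttg1, or securin, the inhibitor of separase. Pttg1 ranged from 10.31 to 10.68 (median 10.44) in controls, 11.34 to 12.55 (median 11.80) with x-rays and 12.43 to 12.90 (median 12.62) with neutron alone. Pttg1 values in the mixed fields were 10.60 to 13.03 (median 12.36) at 5%, 10.76 to 13.44 (median 12.83) at 15% and 11.17 to 12.84 (median 11.53) at 25%. It rose with x-rays, in the 15 and 25% fields and with neutron alone, where its change was 2.15 ± 0.13 (adjusted p = 8.52e-08). In the 5% field it spread from 10.60 to 13.03 and did not pass the test (adjusted p = 0.00581), and a second probe gave between 1.4 and 2.12 in the 5 exposures. Espl1, separase itself, rose in the 3 mixed fields, as did Cdca5, or sororin, the protector of cohesin. Group medians of Cdca5 were 1.35 in controls (0.73 to 1.82), 2.41 with x-rays, 2.46, 2.50 and 2.62 in the 5, 15 and 25% fields, and 1.49 with neutron alone (0.03 to 2.78). With neutron alone Cdca5 differed from controls by 0.25 ± 0.36 (adjusted p = 0.57).

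The 3 cytokinesis genes, Anln, Ect2 and Racgap1, passed the test in no exposure. Anln, the scaffold of the cleavage furrow, had changes of 1.06 to 1.70 with SE of 0.39 to 0.59. Group medians of Anln were -0.45 in controls (-1.96 to 0.50), 0.72 with x-rays, 1.11, 1.37 and 1.2 in the 5, 15 and 25% fields, and 0.76 with neutron alone (-1.52 to 1.54). In the 5% field the 6 mice did not overlap the controls (adjusted p = 0.00556). Group medians of Ect2 were 1.31 in controls (0.00 to 1.79), 1.13 with x-rays, 1.5, 1.28 and 1.66 in the 5, 15 and 25% fields, and 0.86 with neutron alone (-1.19 to 3.31). Ect2, which activates the GTPase RhoA at the furrow, spread widely, from -1.19 to 3.31 among the neutron alone mice. Group medians of Racgap1 were 4.97 in controls (4.45 to 6.29), 5.91 with x-rays, 4.52, 4.97 and 4.46 in the 5, 15 and 25% fields, and 5.51 with neutron alone (4.38 to 5.66). Racgap1, the partner of Kif23 in centralspindlin, differed from controls by 0.85 with x-rays and by -0.57 in the 25% field, and its other probe, which the array annotation places at another locus, gave 0.17 to 0.88.

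No mitosis gene passed the test between a mixed field and x-rays. Against x-rays, 0 of the 37 members were called in the 5% field (0% of all genes higher and 0% lower), in the 15% field (1.67% higher, 2.46% lower) and in the 25% field (0.75% higher, 1.83% lower). At an unadjusted p below 0.05, limma gave 2 members higher and 2 lower in the 5% field, 2 and 5 in the 15% field and 3 and 1 in the 25% field. No share of all genes is given for these unadjusted counts. The random variance t-test also called 0 members in each field. These results do not show that the exposures were alike. The 95% interval of the log2 difference from x-rays was -0.49 to 1.32 for Cdca3, -0.25 to 1.28 for Mki67 and -0.67 to 0.70 for Spc24 in the 25% field. For Cdk1 the intervals lay above 0 in all 3 fields, at 0.40 to 2.57, 0.42 to 2.53 and 0.50 to 2.39 (adjusted p 0.121, 0.0702 and 0.0662). Without replicate 1 of the x-ray group, 1 member was called in the 25% field, and no share of all genes is given.

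Neutron alone was lower than x-rays for 7 of the 37 members and higher for 0, where 6.52% of all genes were called higher and 6.35% lower. The 7 were Cdca3 (-2.41 ± 0.37, adjusted p = 0.000498), Spc24 (-2.01 ± 0.23, adjusted p = 9.99e-05), Mki67 (-1.79 ± 0.29, adjusted p = 0.000715), Tpx2 (-1.31 ± 0.21, adjusted p = 0.000711), Incenp (-1.18 ± 0.21, adjusted p = 0.00159), Top2a (-1.17 ± 0.27, adjusted p = 0.0064) and Nuf2 (adjusted p = 0.00577). For Nuf2 no fold is given, because it was well above background on 0 neutron alone arrays and 3 x-ray arrays and the bound is below 1. The groups did not overlap for Cdca3, Spc24, Mki67, Tpx2 and Incenp, 5 of the 37 members, where 6.85% of all genes were lower without overlap. For Tpx2 and Incenp the call depended on the probe: the second Tpx2 probe gave 1.57, the opposite direction, and the second Incenp probe -0.26. With the mean of a gene's probes neither was called (0.13 and -0.72, adjusted p = 0.723 and 0.0222), and the other 5 were. These groups were scanned in different sessions, and exposure and session cannot be told apart here. Under normexp background correction 0 members were called in this comparison.

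Neutron alone could be set against the 25% mixed field within 1 scan session, with the same neutron dose of 0.75 Gy in each and x-rays in the mixed field alone. Here 6 of 37 members were lower and 0 higher, against 4.01% of all genes called higher and 7.33% lower. They were Cdca3 (-2.83 ± 0.31, adjusted p = 6.64e-05), Mki67 (-2.31 ± 0.26, adjusted p = 6.64e-05), Spc24 (-2.02 ± 0.28, adjusted p = 0.000246), Incenp (-1.24 ± 0.21, adjusted p = 0.000994), Birc5 (-1.21 ± 0.26, adjusted p = 0.00456) and Kif4 (adjusted p = 0.00752), which was well above background on 0 neutron alone and 4 mixed field arrays. The median difference was -0.72 over the members and 0.06 over all genes, and 30 of the 37 members had a negative difference. Probes never above background moved the other way, by 0.73, and under normexp background correction 2 members were called lower. Without replicate 2 of the neutron alone group 17 members were called lower against the 25% field, and 11 were called against x-rays, and all 6 and all 7 members named above were among them. No share of all genes is given for these counts without replicate 2. Nusap1, Kif2c and Pttg1 had positive differences that did not pass the test, and that of Pttg1 from the 25% field was 0.87 ± 0.26 (adjusted p = 0.0275). The second probes of Pttg1 and Kif2c gave -0.09 and -0.19 here, so these directions depend on the probe.

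**Figure D4:**
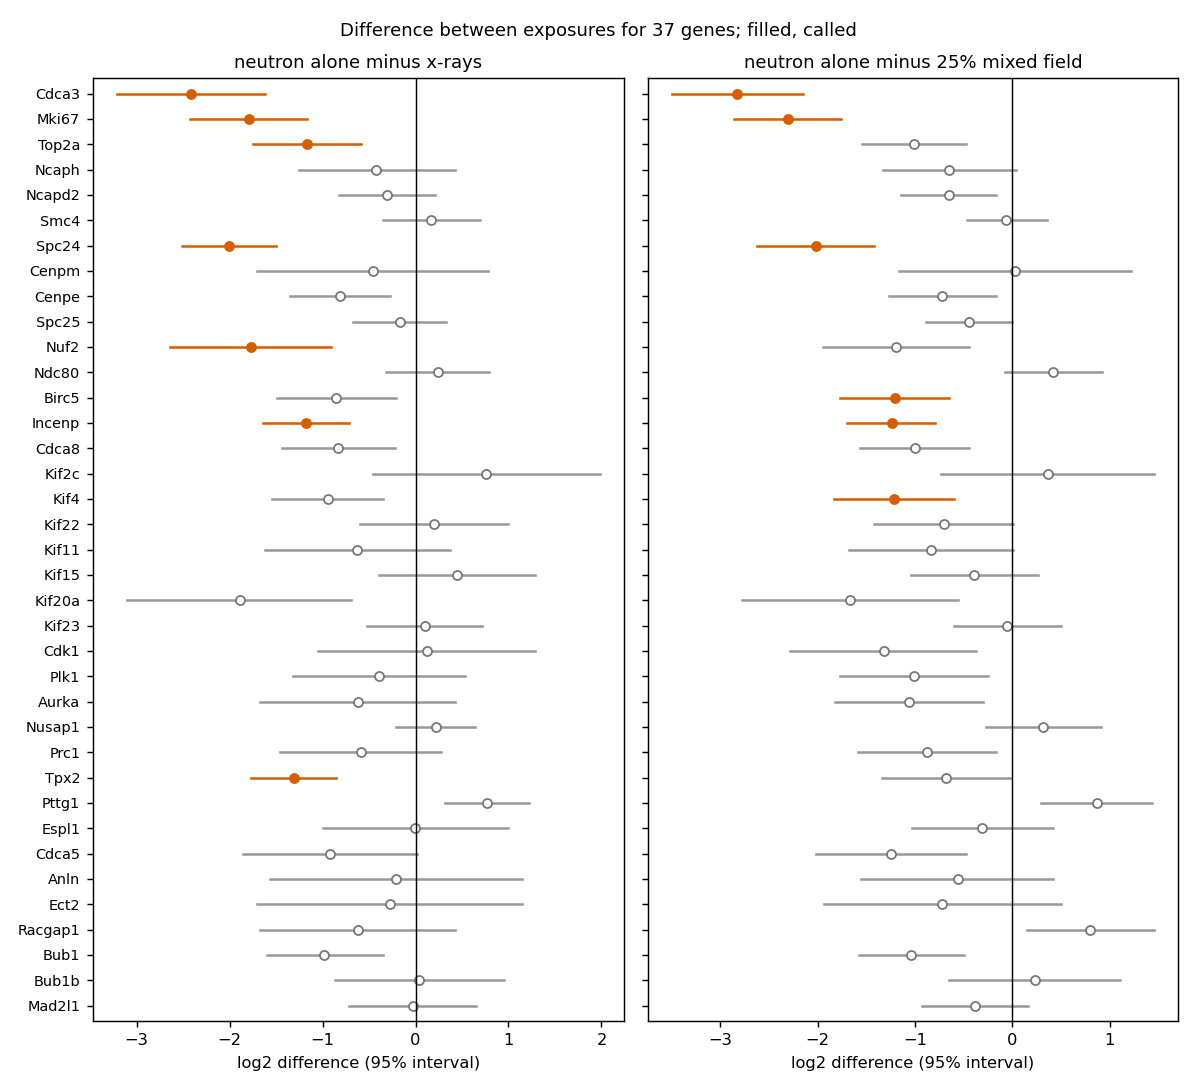
Log2 difference (point) and 95% interval (line) between neutron alone and x-rays (left) and between neutron alone and the 25% mixed field (right) for the 37 mitosis genes. Filled points, 7 on the left and 6 on the right, passed the test and lie below 0, and among them Nuf2 (left) and Kif4 (right) were not well above background with neutron alone.

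The mice of a group did not carry the rise equally. The median over the 37 members of the deviation from the control mean was -0.40 to 0.32 in controls and 0.40 to 2.08 with x-rays, and 0.99 to 1.98, 1.13 to 2.01 and 1.30 to 1.82 in the 5, 15 and 25% fields. With neutron alone it was 0.26 to 0.75 in 5 mice and 1.61 in replicate 2, which had the highest value of its group for 29 of the 37 members. X-ray replicate 5, at 0.40, was lowest of its group for 28 members, and x-ray replicate 1, at 2.08, highest for 21. Every exposed mouse had between 15 and 34 of the 37 members above the highest control. No share of all genes is given for this count per mouse. All 6 mice of a group lay above every control for 15, 19, 22, 24 and 12 members (x-rays, 5, 15, 25%, neutron alone). The shares of all genes were 14.5, 7.73, 10.9, 12.1 and 15% in that order.

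**Figure D5:**
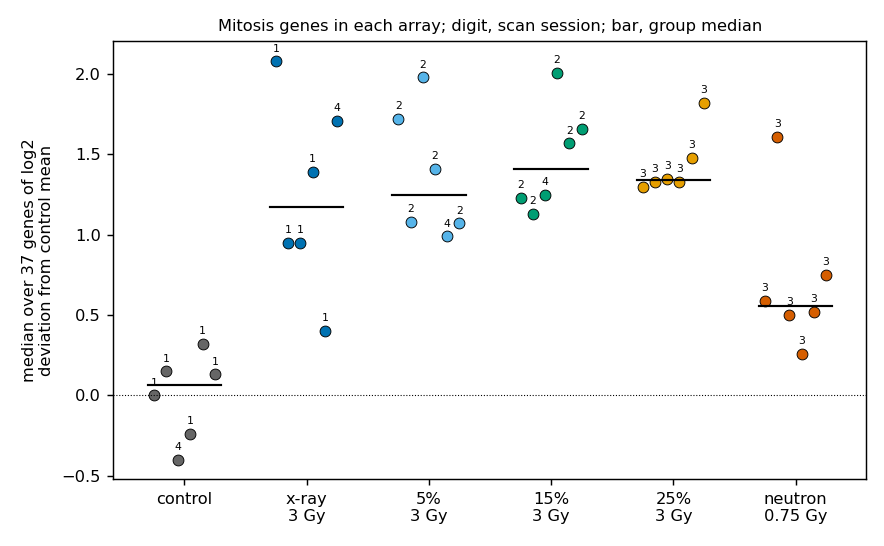
Median over 37 mitosis genes of the log2 deviation from the control mean (vertical axis) in each of 36 mice, by group (horizontal axis), with the scan session as a digit and the group median as a bar. All 30 exposed mice lie above 0.25, and the neutron alone mouse at 1.61 stands apart from the other 5 of its group.

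The members left out of the tests are Aurkb, Ttk and Cenpf, significantly above background on 0 of 36 arrays, Ncapg on 6, Kif18b on 13, Cenpn on 24 and Nek2 on 27, and Cenpa and Smc2, which varied too little. Cenpa, the histone that marks centromeres, differed from controls by 0.20 to 0.70 and was measured on all 36 arrays.

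Genes next to the members in the same pathway were counted in lists drawn up for comparison, beside 12.9, 9.01, 12.6, 10.9 and 16.1% of all genes called higher and 16.9, 14, 16.6, 13.9 and 20.4% called lower in the order x-rays, 5, 15 and 25% and neutron alone. Of 14 other mitotic cyclins, CDC25 phosphatases and anaphase-promoting complex genes tested, 7 rose with x-rays, 7, 9 and 11 in the 5, 15 and 25% fields and 6 with neutron alone, and 1 fell in each. Ccna2, or cyclin A2, differed from controls by 2.95 ± 0.19 with x-rays and 2.58 ± 0.14 with neutron alone, and Ccnb2, or cyclin B2, by 3.47 ± 0.23 and 1.42 ± 0.14. Pkmyt1, an inhibitory kinase of Cdk1, was the gene that fell, by 1.56 ± 0.35 with x-rays, and Fbxo5, with the next lowest mean, did not pass the test. Of 27 other spindle, motor and cytokinesis genes, 7, 9, 10, 14 and 5 rose and 0, 1, 1, 1 and 1 fell, in the same order, so that 18.5% rose with neutron alone, near the share of all genes, with Iqgap3 (3.29 with x-rays) and Gtse1 (1.57) showing the largest mean rise and Kif20b and Ncapd3 the largest mean fall. Of 25 other kinetochore and centromere genes, 9, 5, 6, 5 and 6 rose and 2, 0, 1, 1 and 1 fell, led by Cenpw and Oip5, and Zw10 and Mis18a had the lowest means. Cenpw differed between neutron alone and the 25% field by -2.98 ± 0.32 (adjusted p = 6e-05).

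Among 12 DREAM and MYB-MuvB regulators, which act through the CHR motif printed above, 5, 4, 6, 5 and 5 rose and 2, 3, 1, 2 and 1 fell. Foxm1, an activator of late cell cycle genes, differed from controls by 2.92 ± 0.32 with x-rays and 1.76 ± 0.17 with neutron alone, and Rbbp4, a MuvB subunit, by 2.61 ± 0.20 and 1.41 ± 0.13. Lin9, another MuvB subunit, differed from controls by -1.76 ± 0.35 and -1.79 ± 0.27, and Rbl1, or p107, by -0.99 ± 0.29 and -0.72 ± 0.19. Of 30 DNA replication genes tested, 2, 6, 4, 6 and 3 rose (6.67, 20, 13.3, 20 and 10%) and 2, 3, 6, 3 and 9 fell (6.67, 10, 20, 10 and 30%), with several of these shares at or below those of all genes, and with medians of -0.23, -0.07, -0.17, -0.03 and -0.55. Uhrf1, which maintains DNA methylation at the fork, and Rrm2, a ribonucleotide reductase subunit, had the largest mean rises, and Pold1, the catalytic subunit of polymerase delta, and Cdt1, which licenses origins, the largest falls. In the cohesin ring list only 4 of 9 genes were tested, of which Wapal rose in each exposure and Pds5b fell in all but x-rays.

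Markers of blood cell types were counted in the same way. In the order x-rays, 5, 15 and 25% and neutron alone, 12.9, 9.01, 12.6, 10.9 and 16.1% of all genes were called higher. The shares called lower were 16.9, 14, 16.6, 13.9 and 20.4%. All 20 erythroid markers were tested, and 14, 15, 16, 14 and 18 of them rose and 0 fell, with Klf1, a red cell transcription factor, at 0.23 to 0.77 (median 0.51) in controls, 2.40 to 4.09 (median 3.38) with x-rays and 1.67 to 2.28 (median 2.14) with neutron alone. The summed linear level of the 20 was 50100 to 61000 in controls, 79800 to 187000 with x-rays, 53800 to 167000, 60800 to 214000 and 54200 to 184000 in the 5, 15 and 25% fields and 102000 to 168000 with neutron alone. The brightest erythroid marker was Hba-a1, a globin, although globin RNA had been reduced. Of 8 B cell markers, 8 fell in each 3 Gy exposure and 7 with neutron alone, and their sum went from 2510 to 4560 in controls to 71.3 to 643 with x-rays and 1080 to 1520 with neutron alone, with Cd79b the brightest. Of 6 granulocyte precursor markers 3, 2, 3, 3 and 3 rose, and their sum was 58.8 to 97.9 in controls, 133 to 476 with x-rays and 145 to 442 with neutron alone, with Elane the brightest. Mpo was well above background on 0 arrays of the controls, the 5 and 25% fields and neutron alone. It was so on 1 array with x-rays and 2 in the 15% field. Its median was -0.53 in controls and between -1.69 and -0.51 in the exposed groups. T cell markers fell in 1, 3, 4, 2 and 0 of 9 (11.1, 33.3, 44.4, 22.2 and 0%), and 0 of 6 NK cell markers were called by limma in any exposure. Of 8 platelet markers 0, 0, 3, 4 and 1 rose, and at most 2 of the plasma cell, mature neutrophil, monocyte or progenitor markers moved in any exposure and direction. With neutron alone, 40% of the plasma cell markers tested fell and 33.3% of the monocyte markers rose. The part of these cell types in the values of the mitosis genes was not tested.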

How the data were processed

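The authors deposited, per array, the intensity of each spot on a linear scale from Agilent Feature Extraction 12.0.2, background-corrected within the array but with no normalization between arrays. The log2 values in the table they deposited, normalized and filtered by the authors, served only as an alternative. Gene names and probe positions (mm9) are those in the scanner files.

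Here the processed intensity was put on a log2 scale, spots of the same probe were combined leaving out those marked non-uniform, and the median over 39429 non-control probes was subtracted from each array. Following the study's filters, a probe was kept if more than 75% of the 36 arrays had it uniform and significant against background and if at least 20% of arrays differed 1.5-fold or more from its median. The brightest probe stood for a gene. Groups were compared with limma 3.58.1 in R 4.3.3 on the 12 arrays of a comparison, without pairing. A call needed p below 0.001 and an adjusted p (Benjamini-Hochberg, 15076 genes) below 0.05. The random variance t-test that the study names was an alternative. Where a probe was not well above background on any array of a group, the fold is a bound against the lowest signal well above background. The number of arrays limits the precision. Equal replicate numbers did not pair mice across groups: deviations of same-numbered arrays correlated at 0.037 on average over 90 pairs, and those of other arrays at -0.00632. No 2 arrays were duplicates (highest correlation 0.9819).

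The members were given by name, in a list proposed with results known. The pathway and marker lists were chosen with earlier results of these data known. Named are the members with the largest and smallest mean change in each role, those whose changes differ in sign, those called between exposures and those left out by a filter, and the 2 largest rises and falls of a pathway list. Promoter windows were searched with Python 3.11.15, and the window of the passenger complex gene is not reported here. The steps were tested on simulated data. Alternatives are given at the end.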

Additional observations from a re-analysis of the deposited data

Results flagged for a closer look

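Within groups of 6 mice, a highest or lowest value was set against the others by Dixon's ratio at its critical value for 6 values, for the median of the members and for the 26 named members. Of 162 groups so examined 18 passed it, where chance gives about 1 in 20. The median of the members stood apart in neutron alone replicate 2 (1.61) and in the 25% field replicate 6 (1.82). Neutron alone replicate 2 also stood apart for Birc5 (6.63), Bub1 (0.15), Tpx2 (2.85) and Nuf2 (0.00). The 25% field replicate 5 stood apart for Cdca3 (7.77), Birc5 (7.86) and Nusap1 (10.88), and replicate 6 for Cdca5 (3.38) and Aurka (3.08). The others were Cdca3 in x-ray replicate 5 (4.36), Anln in neutron alone replicate 4 (-1.52), Racgap1 in neutron alone replicate 1 (4.38), and in the 15% field Pttg1 in replicate 3 (10.76), Bub1 in replicate 4 (0.46), Racgap1 in replicate 2 (3.63) and Mad2l1 in replicate 4 (3.10).

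Direct tests between exposures passed for 11 differences between groups that were both measured above background. Neutron alone minus x-rays was -2.41 for Cdca3, -2.01 for Spc24, -1.79 for Mki67, -1.31 for Tpx2, -1.18 for Incenp and -1.17 for Top2a. Neutron alone minus the 25% mixed field was -2.83 for Cdca3, -2.31 for Mki67, -2.02 for Spc24, -1.24 for Incenp and -1.21 for Birc5. For the difference from x-rays the second probe of Tpx2 gave 1.57 and that of Incenp -0.26, so those depend on the probe. Nuf2 (against x-rays) and Kif4 (against the 25% field) were also called lower, but were not well above background on any neutron alone array and are given no difference.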

How the results depend on the processing

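The counts of members higher than controls, in the order x-rays, 5%, 15%, 25% and neutron alone, were 17, 20, 22, 24 and 10. Normexp background correction with offset 50, after which 22 members were tested, lowered them to 2, 0, 6, 3 and 0, with medians of 0.32, -0.06, 0.82, 0.46 and -0.25, and left 0 members different between neutron alone and x-rays and 2 between neutron alone and the 25% field. The shares of all genes called higher against controls fell to 0.254, 0, 5.2, 0.499 and 0.0188%. Under normexp Incenp was at -0.21 and Nusap1 at -0.22 in the 5% field, and Birc5 at -0.07 and Incenp at -0.96 with neutron alone. With quantile normalization after normexp, chosen after seeing the data, 12 members were tested. Of these, 9, 8, 10 and 9 rose in the 3 Gy exposures and 9 with neutron alone. The shares of all genes called higher were 24, 15.1, 23.7, 20.3 and 32% in that order. The members' median was 1.15 in the 25% field and 0.6 with neutron alone. The cause was not tested. The deposited table gave medians of 1.1 at 15%, 1.29 at 25% and 0.43 with neutron alone, and called 1 member, Smc4, lower in the 5 and 15% fields and with neutron alone. The mean of a gene's probes kept 5 of the 7 calls between neutron alone and x-rays. Scaling on the 75th percentile gave 26 with x-rays (19.5% of all genes) and 16 with neutron alone (24.8%). An adjusted p alone gave 26 higher with x-rays (25.1% of all genes) and 20 with neutron alone (25.8%). It gave 14 for neutron alone against x-rays and 17 against the 25% field, and 1 model over all arrays gave 11 against the 25% field. No share of all genes is given for these counts between exposures. Slide as a fixed block left 10 with x-rays (5.46% of all genes). In the 5 and 15% fields slide and session blocks rest on 1 array of each group on the shared slide. Slide left 0 and 3 (0.0133 and 0.139% of all genes). Session left 1 and 4 (0.0862 and 0.398%), with medians of 1.35 and 1.69. With the replicate block, where the numbers do not pair mice, 14, 14, 20, 25 and 9 members rose, and 6 and 4 differed between neutron alone and x-rays or the 25% field. The shares of all genes called higher against controls were then 10.2, 6.22, 10.2, 13 and 15.1%. Leaving out each array gave 0 to 1 between the 25% field and x-rays, 5 to 11 between neutron alone and x-rays, and 4 to 17 between neutron alone and the 25% field. No share of all genes is given for these ranges. No session held arrays of controls and of the 25% field or neutron alone. Upstream of the start alone, the CHR motif was in 37.5% of windows. The other alternatives kept these counts within 1.5 times. Dim probes near background have bounds only.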
